A study of Mus musculus with 2 samples.

Results

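The genes described here encode the inhibitors of the transcription factor NF-kB, called IkB proteins, and the kinases that act on them or are built like those that do. They are 10 of the 55536 genes in the deposited tables and were taken by symbol, all 10 being matched to 1 gene row each. The classical IkB genes are Nfkbia, Nfkbib and Nfkbie. The nuclear IkB genes are Nfkbiz, Nfkbid and Bcl3. The kinase group holds Chuk, Ikbkb and Ikbke, which encode IKK-alpha, IKK-beta and IKK-epsilon, and Ikbkg, which encodes the regulatory subunit NEMO.

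Polyadenylated RNA was sequenced from primary macrophages grown from the bone marrow of C57BL/6J mice. The cells had been stimulated for 300 min at 100 ng/mL, and the labels name the agent in one field as Lipid A and in others as lipoprotein A, a protein. There was 1 group of 2 libraries, biological replicates 1 and 2, with separate biosample records and a shared donor record. No genetic change is given, sex and age were not collected, and no unstimulated group was among the samples, so the values below are levels after stimulation and not responses to it. Nothing states that the replicates came from separate animals, so the spread between them may be technical.

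In resting cells the classical IkB proteins bind NF-kB dimers and hold them in the cytoplasm. Signals from Toll-like and cytokine receptors activate the IKK complex of IKK-alpha, IKK-beta and NEMO, which phosphorylates the classical IkB proteins. These are then ubiquitinated and degraded, and the freed dimers enter the nucleus, where Nfkbia is among their best known targets and gives a negative feedback loop. The nuclear IkB proteins instead bind dimers at chromatin, and IKK-epsilon acts with its relative TBK1 on the interferon regulatory factors. Macrophages are a standard cell type for studying this system, since bacterial products drive it strongly in them.

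The libraries held 38078400 expected counts in replicate 1 and 63705300 in replicate 2, of which the 10 genes took 0.178% and 0.162%. Expected counts are estimated reads per gene before normalisation. TPM, a measure of transcript abundance, divides them by transcript length and then scales each library to the same total, so that levels of different genes can be set side by side. All 10 macrophage markers reached 1 TPM in both libraries, with summed levels of 16292 and 22564 TPM in replicates 1 and 2 and Lyz2 the highest. Of 10 neutrophil markers 3 reached 1 TPM in both libraries, and each of the 3 was higher in replicate 1. S100a9, the highest, had 316 (replicate 1) and 10.15 TPM (replicate 2), S100a8 127 and 5.63 TPM, and Ngp 52.4 and 2.34 TPM. The levels of all 10 summed to 508 TPM for replicate 1 and 18.7 TPM for replicate 2, and Ly6g was at 0 in both. T and NK cell markers reached 1 TPM in both libraries for 1 of 8 genes (Cd4), B cell markers for 1 of 6 (Ighm), dendritic cell markers for 1 of 6 (Ccr7), and fibroblast markers for 0 of 6. Summed T and NK cell, B cell, dendritic cell and fibroblast marker levels were 45.5, 6.75, 14.7 and 1.80 TPM for replicate 1, and 79.9, 7.24, 4.2 and 1.34 TPM for replicate 2. Nearly all of the T and NK cell sum was Cd4, with 44.8 TPM in replicate 1 and 79.85 TPM in replicate 2. Of those 8 genes 6 had no counts in replicate 2. In RNA from whole cultures, fewer cells of a type and less RNA per cell cannot be told apart, and the part of these differences in the ratios between the libraries given below was not tested.

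RefSeq promoter windows (GRCm38.p6) of 300 bases, 250 before and 50 after each start site, were given for 8 of the 10 genes and were searched on both strands for the kB consensus, the DNA sequence that NF-kB dimers bind. At least 1 match lay in a window of 4 genes, namely the classical Nfkbia and Nfkbie and the nuclear Nfkbid and Bcl3. They are shown because these are the members of the set whose start regions carry the letters of that consensus. The windows of Nfkbib, Chuk, Ikbkg and Ikbke held no match. Of all 27025 mouse genes with windows 9.55% had at least 1 match (2581 genes), and of all 32851 windows 8.46% held one (2779 windows). A match is a description of the letters and is neither a binding site nor a cause, and no match says only that the letters are not in that window. The stretches are read 5′ to 3′ on the strand of the gene, with the matches in capitals.
Nfkbia promoter: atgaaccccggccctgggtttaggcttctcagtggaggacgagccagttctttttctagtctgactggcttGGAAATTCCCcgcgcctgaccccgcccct
Nfkbie promoter: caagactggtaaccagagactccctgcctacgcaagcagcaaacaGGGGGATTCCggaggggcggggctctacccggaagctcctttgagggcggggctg
Nfkbid promoter: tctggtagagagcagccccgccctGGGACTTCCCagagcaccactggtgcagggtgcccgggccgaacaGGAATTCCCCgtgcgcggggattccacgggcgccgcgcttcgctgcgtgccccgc
Bcl3 promoter: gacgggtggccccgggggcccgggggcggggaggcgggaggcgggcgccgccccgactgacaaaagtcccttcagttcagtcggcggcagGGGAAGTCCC
The Nfkbia stretch is chr12:55492648-55492747 on the minus strand, and its match begins 29 bases before the start site. The Nfkbie stretch is chr17:45555549-45555648 on the plus strand, with the match beginning 106 bases before the start. Nfkbid has 3 RefSeq start sites, and both matches lie before 1 of them, at chr7:30422156-30422279 on the plus strand, the first beginning 226 bases before that start. The Bcl3 stretch is chr7:19822744-19822843 on the minus strand, and its match lies 2 to 11 bases past the RefSeq start.

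All 10 genes reached 1 TPM in both libraries, as did 42.4% of the 22028 protein-coding genes. At 10 TPM 9 of the 10 did so, all but Nfkbid, against 23.5% of protein-coding genes. At 100 TPM 4 did so, namely Nfkbia, Nfkbib, Nfkbiz and Ikbke, against 5.08% of protein-coding genes.

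Nfkbia, which encodes IkB-alpha, the fast-turnover inhibitor of the feedback loop, lies at chr12:55489410-55492647 (mm10, minus strand). It stood at 662 TPM (replicate 1) and 444 TPM (replicate 2), from 21204 and 24126 expected counts. It was the highest of the 10 genes in each library, above 99.1% and 98.5% of protein-coding genes in replicates 1 and 2. Nfkbib (IkB-beta, a more slowly degraded inhibitor; chr7:28758251-28767512, minus strand) had 180 and 208 TPM from 4430 and 8591 counts. Nfkbie (IkB-epsilon; chr17:45555703-45563169, plus strand) had 120 and 99.7 TPM from 6540 and 9014 counts. So the classical genes kept the order Nfkbia, Nfkbib, Nfkbie in both libraries, and the distance between Nfkbia and the other two differed between them. Nfkbia stood 3.67 times above Nfkbib in replicate 1 and 2.13 times above it in replicate 2, and 5.51 and 4.45 times above Nfkbie.

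Nfkbiz (IkB-zeta; chr16:55811375-55838899, minus strand) works in the nucleus as a coactivator of a subset of inflammatory genes, Il6 among them. It had 121 (replicate 1) and 125 TPM (replicate 2), from 10051 and 17280 counts, the smallest relative spread of the 10 genes at 123 ± 2.84 TPM (SD, n = 2). Bcl3, which binds dimers of the Nfkb1 and Nfkb2 products (chr7:19808462-19822770, minus strand), had 56.4 (replicate 1) and 85.4 TPM (replicate 2), from 2001 and 5441 counts. Nfkbid (IkB-NS; chr7:30421732-30428746, plus strand) was the lowest of the 10 genes in each library, with 5.92 and 4.99 TPM. Its 251 counts in replicate 1 have an exact 95% Poisson interval of 221 to 284 and its 358 counts in replicate 2 one of 322 to 397, which cover counting error only. The nuclear genes therefore spanned a wide range, with Nfkbiz 20.4 and 24.96 times above Nfkbid and 2.14 and 1.46 times above Bcl3 in replicates 1 and 2.

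Ikbke (chr1:131254343-131279606, minus strand) was the highest of the kinase group, with 270 (replicate 1) and 295 TPM (replicate 2), from 15332 and 28451 counts. It stood above 97.5% and 97.7% of protein-coding genes. Ikbkb, the main IkB kinase of inflammatory signalling (chr8:22659212-22706589, minus strand), had 63.3 and 55.6 TPM from 4318 and 6964 counts. Ikbkg (chrX:74393290-74453854, plus strand) had 19.2 and 17.9 TPM from 1338 and 1405 counts. Chuk, the catalytic subunit that also drives processing of the Nfkb2 product (chr19:44073335-44107480, minus strand), had 32.3 (replicate 1) and 11.5 TPM (replicate 2), from 2126 and 1431 counts. Within the IKK complex Ikbkb was the highest in both libraries, while by TPM Chuk lay above Ikbkg in replicate 1 and below it in replicate 2. Chuk alone of the 10 genes had more counts in the smaller library.

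**Figure D1:**
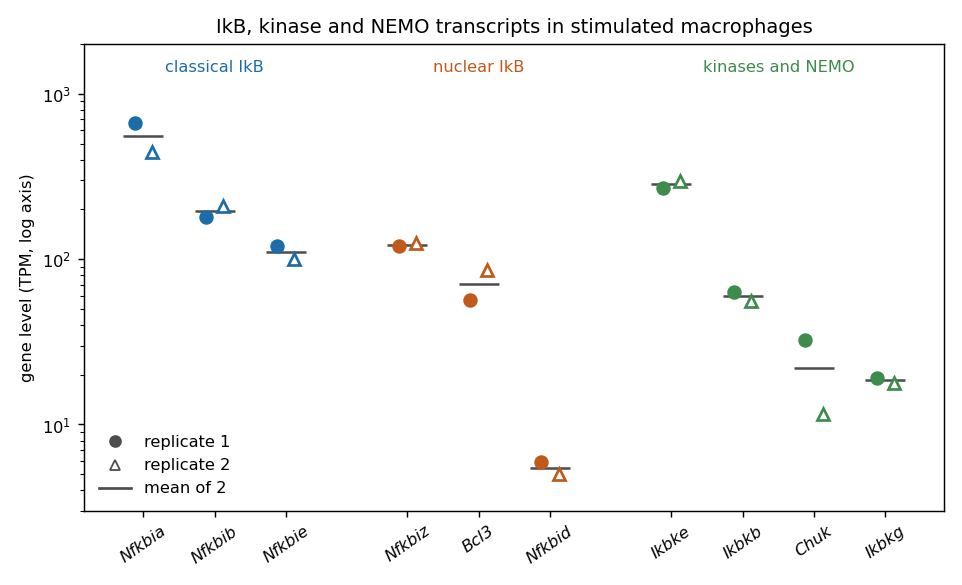
Level of each gene in TPM on a log axis, grouped by class and sorted by the mean within it; filled circles are replicate 1, open triangles replicate 2 and horizontal lines the mean of the 2 libraries. Nfkbia and Ikbke lead their classes in both libraries, Nfkbid is the lowest gene, and Chuk, Bcl3 and Nfkbia have visibly separate values in the 2 libraries.

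Ordered by mean level over the 2 libraries, the genes ran from Nfkbia (553 ± 155 TPM; SD, n = 2) through Ikbke (283 ± 17.8), Nfkbib (194 ± 19.6), Nfkbiz (123 ± 2.84), Nfkbie (110 ± 14.6), Bcl3 (70.9 ± 20.5), Ikbkb (59.4 ± 5.41), Chuk (21.9 ± 14.7) and Ikbkg (18.5 ± 0.912) to Nfkbid (5.46 ± 0.658). The ranges of the 2 libraries overlapped for Bcl3 and Ikbkb and for Chuk and Ikbkg, and each of these pairs changed order between the libraries. Nfkbiz and Nfkbie did not overlap, but their means differed by less than the SD of Nfkbie. The other neighbours in this order differed by more than the SD of either gene and did not overlap. By expected counts, which are not divided by length, the order was another one: Ikbke was first in replicate 2 and Nfkbia second, and Nfkbiz and Nfkbie lay above Nfkbib in both libraries.

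Summed over each class, the classical IkB genes had 963 (replicate 1) and 752 TPM (replicate 2), the nuclear IkB genes 183 and 215 TPM, and the kinases with NEMO 385 and 380 TPM. The classical genes thus held 62.9% and 55.8% of the TPM of the 10 genes, the nuclear genes 11.9% and 16.0%, and the kinase group 25.1% and 28.2%. By expected counts the classical genes held 47.6% and 40.5%, the nuclear genes 18.2% and 22.4%, and the kinase group 34.2% and 37.1%. The classical share was the largest on either scale in both libraries, and the kinase group's share was larger by counts than per length.

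**Figure D2:**
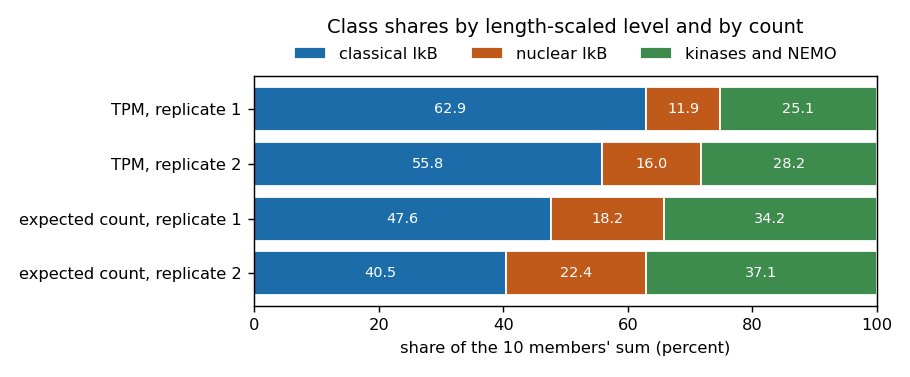
Share of the 10 genes' summed TPM and summed expected counts held by each class, in percent, for each library; numbers in the bars are percents. The classical IkB genes hold between 40.5% and 62.9%, and the nuclear IkB genes the smallest share in every bar.

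The class comparison was made on the difference of log2 median TPM in each library; with 2 libraries of 1 group no test is given. The classical genes had medians of 180 (replicate 1) and 208 TPM (replicate 2), and the kinase group 47.8 and 36.7 TPM, a log2 difference of 2.21 ± 0.41 (SD, n = 2). With summed TPM in place of medians that difference was 1.15, since Ikbke carries most of the kinase sum. The nuclear genes had medians of 56.4 and 85.4 TPM, and lay below the classical genes by a log2 difference of -1.48 ± 0.28. Against the kinase group the nuclear genes were higher by 0.24 in replicate 1 and by 1.22 in replicate 2 on the log2 scale, a mean of 0.73 ± 0.69 whose SD is close to its size. That direction turned with the summary: it was -0.42 with the mean of log2(TPM + 1) over the genes and -0.95 with summed TPM, so no order of nuclear IkB genes and kinases is given.

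Ikbke stood apart from the genes of the IKK complex. Its log2 level was 3.06 above the median of Chuk, Ikbkb and Ikbkg in replicate 1 and 4.05 above it in replicate 2. The median gene was Chuk in replicate 1 and Ikbkg, which encodes NEMO, in replicate 2, so these values have different references. Ikbke was 2.35 and 3.47 times the sum of those 3 genes in TPM, and 4.27 and 5.31 times Ikbkb alone. Its relative Tbk1, which shares the interferon regulatory factors as substrates, had 105 (replicate 1) and 156 TPM (replicate 2), so that Ikbke was 2.58 and 1.90 times as high. Within the IKK complex, Ikbkg was 0.303 and 0.321 times the TPM of Ikbkb, and Chuk 0.511 and 0.207 times. By expected counts Ikbkg was 0.310 and 0.202 times Ikbkb, and the mean transcript length assigned to Ikbkg was 3067 bases in replicate 1 and 2158 bases in replicate 2. The near-equal TPM ratios of Ikbkg therefore do not hold by counts. Protein levels and assembled complexes were not measured.

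The inhibitors were also set against the NF-kB subunits they bind. All 5 subunit genes reached 1 TPM in both libraries, with a summed level of 772 (replicate 1) and 913 TPM (replicate 2). The classical IkB sum was 1.25 times the subunit sum in replicate 1 and 0.823 times it in replicate 2, so by TPM the larger of these sums changed between the libraries. By expected counts the subunit sum was the larger in both, the classical genes holding 32174 counts against 54537 for the subunits in replicate 1, and 41731 against 80786 in replicate 2. Rela, which encodes the main activating subunit, had 101 and 412 TPM from 4614 and 15119 counts. Nfkbia was accordingly 6.53 times Rela in replicate 1 and 1.08 times it in replicate 2 by TPM, and 4.60 and 1.60 times by counts. Nfkb2 had the highest mean of the list, at 333 and 221 TPM, and Relb the lowest, at 46.1 and 32.0 TPM. The sum of the classical genes against Chuk, Ikbkb and Ikbkg together was closer between the libraries, at 8.39 times in replicate 1 and 8.84 times in replicate 2 by TPM, and 4.13 and 4.26 times by counts.

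The deposited transcript tables give the share of each gene's TPM in each annotated transcript. The leading transcript was protein-coding in all 10 genes, was the one that both deposited quantifications put first in each library, and was the same transcript in replicates 1 and 2 for 9 of the 10. Among the classical genes 1 transcript held nearly all of the signal: Nfkbia-201 held 97.6% in replicate 1 and 98.7% in replicate 2, Nfkbib-202 held 98.0% and 99.3%, and Nfkbie-201 held 93.8% and 93.9%. The rest of Nfkbia was a retained-intron transcript, with 2.40% and 1.27% by the first quantification, and 3.91% and 15.1% by the second.

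Nfkbiz was divided between a pair of coding transcripts, Nfkbiz-204 with 68.0% in replicate 1 and 72.6% in replicate 2, and Nfkbiz-203 with 29.1% and 25.2%. Their annotated coding sequences are 2184 and 1887 bases long. They reach the shared exon at chr16:55819567-55819706 from different upstream exons, chr16:55821768-55822138 for Nfkbiz-204 and chr16:55836321-55836392 for Nfkbiz-203. The junctions are printed because reads across them tell the transcripts apart, with 15 bases on each side and the shared exon in capitals (GENCODE M21 transcripts, GRCm38, minus strand).
Nfkbiz-204: ccgagcgccctcaagTTGAGCCCCACATGG
Nfkbiz-203: gctgaagtcccgaggTTGAGCCCCACATGG
The longer coding form was thus the larger share in each library. Nfkbid-203 held 82.3% and 82.5% of its gene by the first quantification, with Nfkbid-201 next at 14.7% and 15.6%. By the second quantification Nfkbid-203 held 70.5% in replicate 1 and 65.4% in replicate 2. Nfkbid-202, at 0% by the first in both libraries, held 8.21% and 13.3% by the second. Bcl3-201 held 86.4% in replicate 1 and 95.3% in replicate 2 by the first quantification. The order of the libraries turned with the second, which gave 84.4% and 78.8%.

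The kinase genes were more divided. Chuk-201 held 56.1% of its gene in replicate 1 and 57.7% in replicate 2, and Chuk-202 held 20.95% and 30.6%. Ikbke-201 held 56.2% and 56.4%, and Ikbke-204 held 13.4% and 18.3%. Chuk-201 and Ikbke-201 contain bases that Chuk-202 and Ikbke-204 lack, shown in capitals with 12 shared bases on each side (GENCODE M21, GRCm38, minus strands).
Chuk-201: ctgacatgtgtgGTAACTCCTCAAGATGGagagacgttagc
Chuk-202: ctgacatgtgtgagagacgttagc
Ikbke-201: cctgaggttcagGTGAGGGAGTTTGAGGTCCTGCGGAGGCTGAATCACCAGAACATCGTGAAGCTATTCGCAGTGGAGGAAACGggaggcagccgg
Ikbke-204: cctgaggttcagggaggcagccgg
The Chuk stretch of 17 bases is chr19:44077246-44077262, and the annotated coding sequences are 2235 bases in Chuk-201 and 2157 in Chuk-202. The Ikbke stretch of 72 bases is chr1:131275707-131275778, and the coding sequences are 2151 bases in Ikbke-201 and 2079 in Ikbke-204. Ikbkb-201 held 72.0% of its gene in replicate 1 and 80.9% in replicate 2, with the short non-coding Ikbkb-213 next at 19.0% and 10.6%. By expected counts Ikbkb-213 held only 2.26% and 1.24%, and the retained-intron Ikbkb-211 came next with 5.34% and 5.85%.

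Transcripts annotated as retained introns took 23.0% of Chuk in replicate 1 and 11.7% in replicate 2, and 24.6% and 17.5% of Ikbke. The second quantification put them at 35.1% and 35.2% for Chuk and at 38.1% and 37.0% for Ikbke. By expected counts, where short transcripts weigh less, they took 5.69% and 4.83% of Chuk and 10.4% and 6.17% of Ikbke. In both genes the retained-intron share thus depended on the measure, highest by the second quantification and lowest by counts, and the difference between the libraries seen for Chuk with the first was not seen with it. Protein-coding transcripts alone gave Ikbke a mean of 224 TPM in place of 283. Ikbkg was the exception to a stable leading transcript: of 18 annotated transcripts Ikbkg-202 led in replicate 1 with 31.2%, against 17.7% in replicate 2, and Ikbkg-216 led in replicate 2 with 42.8%, against 24.7% in replicate 1. Ikbkg-216 is a short annotated transcript of 718 bases, and by expected counts Ikbkg-202 led in both libraries.

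**Figure D3:**
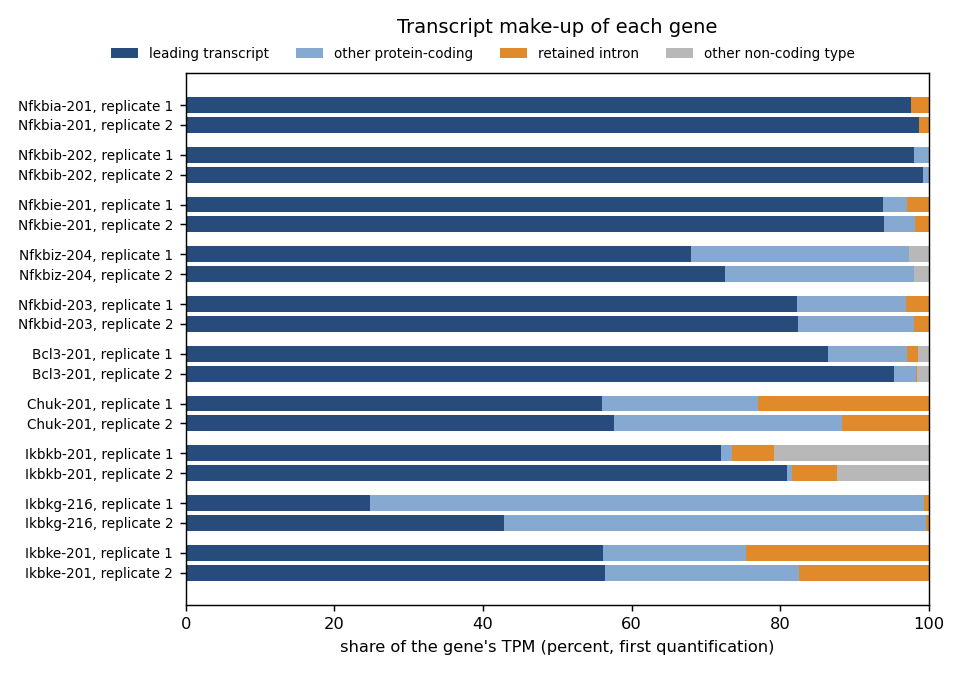
Share of each gene's TPM in its leading transcript, other protein-coding transcripts, retained-intron transcripts and other non-coding types, in percent, by the first quantification; each gene has a bar per library, named by the transcript with the highest mean share. The classical IkB bars are nearly all 1 transcript, while Chuk and Ikbke hold retained-intron shares between 11.7% and 24.6%.

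Replicates 1 and 2 were then compared gene by gene as the log2 ratio of expected counts, replicate 1 over replicate 2, after scaling of the libraries with edgeR's TMM factors. With 1 library on each side this is a description of the libraries and not a test. Past 1.5-fold lay 2 of the 10 genes, against 35.8% of the 12226 genes kept, which does not set the 10 genes apart. Chuk was higher in replicate 1, with a log2 ratio of 1.13 and a 95% counting interval of 1.04 to 1.23, and 19.1% of all genes were past the fold in that direction. Bcl3 was higher in replicate 2, with a log2 ratio of -0.88 (-0.96 to -0.81), and 16.7% of all genes were past the fold in that direction. Past 2-fold lay Chuk alone of the 10, against 13.2% of all genes in either direction and 7.94% in the direction of Chuk.

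The other 8 genes had log2 ratios between -0.39 (Nfkbib) and 0.49 (Ikbkg). Nfkbia had 0.38, Nfkbie 0.10, Nfkbid 0.05, Ikbkb -0.13, Nfkbiz -0.22 and Ikbke -0.33. The signs of Nfkbid, Ikbkb and Nfkbiz are not read as directions. Those of Nfkbid and Ikbkb turned under at least 1 other scaling, filter or unit. That of Nfkbiz turned only with the trend over GC content and length, described below, removed, where the ratio was 0.015. The median size of the log2 ratio was 0.35 over the 10 genes and 0.43 over all genes kept. The spread between the libraries over all genes, as edgeR's common biological coefficient of variation, was 0.319.

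The ratio moved with base composition. Genes whose leading transcript lay in the lowest decile of GC content, from 31.9% to 41.6%, had a median log2 ratio of 0.69, and genes in the highest decile, from 57.8% to 73.0%, had -0.10. Chuk, at 41.3% GC, lay in the lowest decile, and Bcl3, at 62.6%, in the highest. The leading transcript here is the one with the highest mean TPM. For Ikbkg that is Ikbkg-216, which held 3.90% of the gene's expected counts in replicate 1 and 10.6% in replicate 2. The GC content and length used for Ikbkg therefore come from a transcript with few of its counts. With the trend over GC content and length removed, the log2 ratio was 0.71 for Chuk and -0.75 for Bcl3, so both stayed past 1.5-fold, against 30.0% of all genes by that measure.

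**Figure D4:**
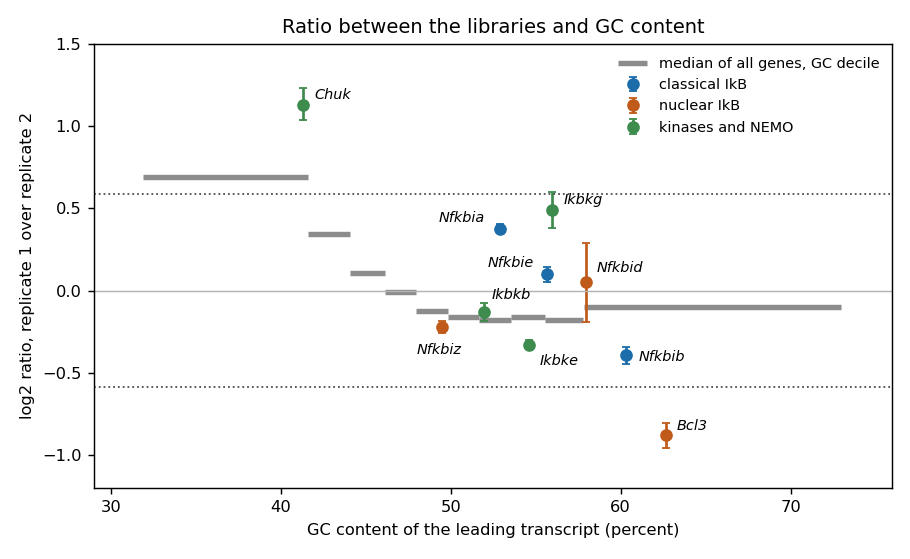
Log2 ratio of scaled counts, replicate 1 over replicate 2, against the GC content of each gene's leading transcript in percent; points are the 10 genes with 95% counting intervals, grey bars the median of all genes in each decile of GC content, and dotted lines mark 1.5-fold. Chuk at 1.13 and Bcl3 at -0.88 lie outside the dotted lines, and Chuk shares its end of the GC range with genes whose median is 0.69.

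Genes annotated over the same bases overlap 5 of the 10 genes, namely Nfkbib, Bcl3, Ikbkb, Ikbkg and Ikbke, each on the opposite strand. The strand used in counting is not stated, so for these genes reads from the partner cannot be told apart. Sirt2, at 107 (replicate 1) and 184 TPM (replicate 2), overlaps 778 bases of Nfkbib. G6pdx, at 79.5 and 133 TPM, overlaps 19712 bases of the span of Ikbkg. Both overlaps lie outside the most used transcripts, Nfkbib-202 at chr7:28759032-28766514 and, by counts, Ikbkg-202 at chrX:74429704-74451520. The antisense gene Gm28913 in Ikbke had 11.3 and 3.46 TPM, and the other overlapping partners were at 2.37 TPM or below in both libraries.

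Of 54 other genes of the pathway, in 7 lists, 52 reached 1 TPM in both libraries, and 18 reached 100 TPM in both. Of all protein-coding genes 42.4% reached 1 TPM and 5.08% reached 100 TPM, which also stands beside the counts per list below. Past 1.5-fold between the libraries were 15 of the 52, with 6 higher in replicate 1 and 9 higher in replicate 2, beside the 35.8% of all genes given above. With the trend over GC content and length removed 16 of the 52 were past it, beside 30.0% of all genes. Of the 15 genes 12 stayed past the fold, while Skp1a, Rnf31 and Tnip3 did not. Relb at 0.68, Nfkb2 at 0.61, Ube2n at -0.91 and Tank at -0.60 came past it, and those not named elsewhere were picked after their values were seen. The NF-kB subunits are described with the inhibitors, and of these Rela was past the fold, with a log2 ratio of -1.15.

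Upstream of the kinases, all 15 genes for IKK activation reached 1 TPM in both libraries. Tab2, an adaptor of the kinase TAK1, had the highest mean, with 142 (replicate 1) and 291 TPM (replicate 2), and Tab3 the lowest, with 4.40 and 2.13 TPM. Past the fold, all higher in replicate 2, were Tab2 at -0.93, Map3k14 at -0.90 and Rnf31 at -0.68 on the log2 scale, and Rnf31 was at -0.46 with the GC and length trend removed. Map3k14 encodes the kinase that activates IKK-alpha in the non-canonical pathway, and Rnf31 a subunit of the linear ubiquitin ligase. Of the 4 chaperone and scaffold genes Hsp90ab1 was highest, at 429 and 434 TPM, and Erc1, a scaffold of the IKK complex, lowest, at 3.19 and 6.56 TPM. Hsp90aa1 had 204 (replicate 1) and 67.9 TPM (replicate 2), a log2 count ratio of 1.65, and Erc1 had -1.21.

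Downstream, the 6 genes for IkB ubiquitination and degradation all reached 1 TPM in both libraries. The ubiquitin-conjugating enzyme gene Ube2d3 was highest, with 585 and 1425 TPM and a log2 count ratio of -0.71. Btrc, which encodes the receptor that recognises phosphorylated IkB, was lowest, at 7.72 and 7.97 TPM. Skp1a, a subunit of the same ligase, had a log2 ratio of 0.74, and of 0.07 with the GC and length trend removed. Among the 8 partners of IKK-epsilon the transcription factor gene Irf7 was highest, at 1169 (replicate 1) and 1172 TPM (replicate 2). The adaptor gene Mavs was lowest, at 7.62 and 8.88 TPM, and Ticam1, the adaptor gene of Toll-like receptor signalling to interferon, was past the fold at -0.88.

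The 9 genes listed here as restraining IKK or stabilising IkB all reached 1 TPM in both libraries. Tnip3, a partner of the deubiquitinase A20, was highest, with 800 (replicate 1) and 459 TPM (replicate 2) and a log2 ratio of 0.60, which was 0.21 with the GC and length trend removed. Nfkbil1 was lowest, at 8.07 and 5.07 TPM. Nkiras1, an IkB-binding Ras-like protein gene, had a log2 ratio of 1.13, and Tnip1 had -0.99.

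Of 7 genes known from mouse macrophages to depend on IkB-zeta, 5 reached 1 TPM in both libraries. Il12b was highest, with 323 (replicate 1) and 200 TPM (replicate 2), and Csf3 lowest, with 0.21 TPM in replicate 1 and listed at 0 in replicate 2. Il6 had 258 (replicate 1) and 52.5 TPM (replicate 2), a log2 count ratio of 2.06 that was 0.94 with the GC and length trend removed. Lcn2 was also past the fold and higher in replicate 1, at 0.84, and at 0.85 with that trend removed. Il12b at 0.51 and Edn1 at 0.10 were not past it. Only Cebpd was higher in replicate 2, at -1.08. Nfkbiz itself had a log2 ratio of -0.22, whose sign is not read as a direction, and its part in these ratios was not tested.

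**Figure D5:**
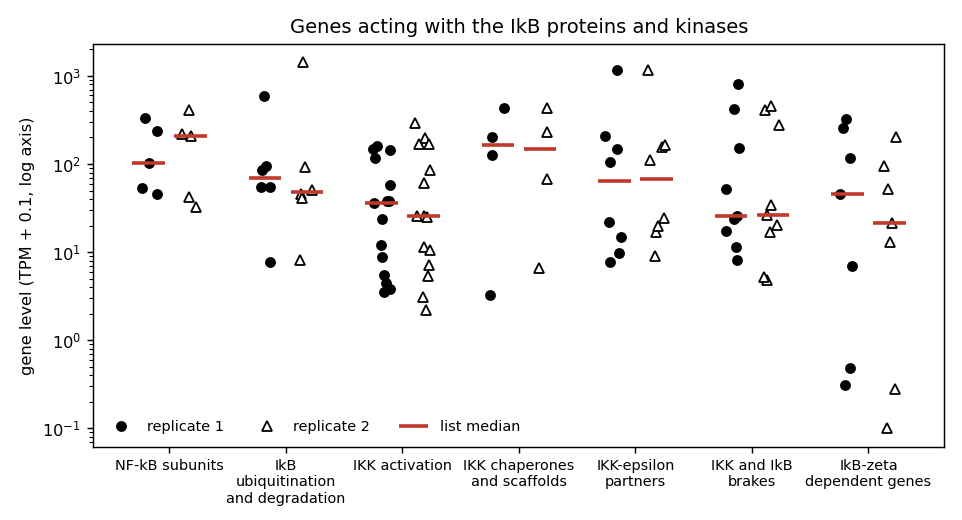
Level of each gene of the 7 pathway lists in TPM, with an offset of 0.1 so that zeros can be drawn on the log axis; filled circles are replicate 1, open triangles replicate 2, and red lines the list medians. Irf7 and Ube2d3 are the highest points, and 2 of the IkB-zeta list lie below 1 TPM in both libraries.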

How the data were processed

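Per library the authors deposited tables of genes and, from 2 quantifications, of transcripts, on mm10 with GENCODE M21, per the file headers and labels. Expected counts are the authors' estimated reads per gene or transcript, not normalised. The authors' deposited TPM values are scaled to length and library total, and their deposited FPKM values were used in 1 alternative. The deposited percent column gives each transcript's share of its gene's TPM. Estimated counts and TPM of the second deposited table were summed per gene. The sources used here do not give the aligner, the quantifiers, their versions or the counting strand. Rows naming no gene (26345 tRNA and control rows, with 0.132% of counts in replicate 1 and 0.0882% in replicate 2) were left out.

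Replicate numbers come from the labels. Means ± SD are over 2 libraries, and no test was made, since there is 1 group. Ratios used counts rounded to whole numbers, edgeR 4.0.16 (R 4.3.3) with its low-count filter, TMM factors and a prior count of 2; the alternatives included DESeq2 1.42.0 size factors. The calculation was tested on simulated data with far less spread between libraries than these have and no GC trend, which checks the arithmetic only. Counting intervals are at 95%. A GC content and length trend was fitted with splines of 4 degrees of freedom. All 10 genes are named; of each pathway list the highest and lowest by mean TPM and genes past 1.5-fold are named, up to 4 a list. Tbk1 was added for its ratio to Ikbke, and Lcn2 and Edn1 so that every ratio of the IkB-zeta list is given. The 10 genes and the lists were chosen with earlier results of these data known.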

Additional observations from a re-analysis of the deposited data

How the results depend on the processing

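No paired analysis was possible because there is only 1 group. Classical over kinase genes and Ikbke over the IKK complex genes, and nuclear below classical genes, kept their direction under every alternative run. With summed TPM the log2 differences were 1.15 for classical minus kinases, -2.10 for nuclear minus classical and 1.52 for Ikbke minus the IKK complex genes. Nuclear minus classical was -2.57 with the mean of log2(TPM + 1) and -1.01 among genes at 10 TPM or more. Nuclear minus kinases reversed, to -0.42 with the mean of log2(TPM + 1) and to -0.95 with summed TPM. Sums and means take in the sizes of Ikbke and Nfkbid, and the class medians do not. Ikbke held 270 of the kinase group's 385 TPM in replicate 1 and 295 of 380 TPM in replicate 2. Nfkbid had 5.92 and 4.99 TPM. The part of each gene in the reversal was not tested. Leaving out each replicate gave 1.92 to 2.50 for classical minus kinases, -1.68 to -1.28 for nuclear minus classical, 0.24 to 1.22 for nuclear minus kinases and 3.06 to 4.05 for Ikbke. A 2-fold limit left 1 gene past it. Scaling by total counts put 3 genes past 1.5-fold, adding Ikbkg at 0.67, and shifted the median log2 ratio of all genes by 0.18. Ratios cannot be had without a replicate. The order by mean TPM kept all 10 places with the second quantification, though in replicate 2 alone that put Bcl3 (97.6 TPM) above Nfkbie (91.0 TPM). It kept all 10 places with FPKM and with TPM over protein-coding genes. These rescale all genes of a library alike, so neither could change the order within a library, nor FPKM a class difference. Without either replicate 8 places were kept. The counts of places were added after seeing the data. Of 30 gene levels recomputed under other quantifications, totals or transcripts 12 moved by more than the SD of 2 libraries, as did 14 of 20 transcript shares, and 32 of 70 ratios moved beyond their counting interval. Some of these settings shifted all 10 genes nearly alike. They were TPM over protein-coding genes for levels, and total-count scaling and no low-count filter for ratios. Whether a gene moved under them followed from its own SD or interval, so those moves do not set genes apart. Nfkbid, the lowest gene, rests on 251 and 358 counts, and 2 libraries limit every SD.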
